A study of Mus musculus with 8 samples.

Results

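The genes described here encode the lytic granule of cytotoxic lymphocytes and the proteins that hold its enzymes in check, and they were followed in CD4+ T cells separated into CD45RBlow and CD45RBhigh subsets. The 10 genes were listed by name, with earlier results of these data known, so counts among them are descriptions of a chosen set. They are the granzymes Gzma, Gzmb, Gzmc and Gzmk, the pore protein gene Prf1, the cathepsin gene Ctsw, the serpin genes Serpinb6b and Serpinb9, the granule membrane protein gene Nkg7 and the proteoglycan gene Srgn. They stand among 22180 genes with a named transcript cluster, and each had a single cluster with its symbol alone. Of the 10, 9 passed the filter on dim genes and were tested among 13508 genes. Gzmc was below that filter and is given by its values only.

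Splenic CD4+CD25- T cells had been sorted by flow cytometry from C57BL/6 mice aged 6 to 8 weeks and stimulated on plates coated with antibodies to CD3 and CD28. The protocols of the samples give 48 h of stimulation and the design text of the series gives 2 h, so the duration is not settled. The 4 groups were CCR2-/- CD45RBlow, CCR2-/- CD45RBhigh, wild-type (wt) CD45RBlow and wt CD45RBhigh cells, with 2 arrays each. CCR2 is the receptor of the chemokine CCL2, and CD45RB is an isoform of the phosphatase CD45 that is high on naive and lower on antigen-experienced CD4+ T cells. All groups were stimulated, no unstimulated cells were measured, and no label tells how many mice stand behind an array or that replicates came from separate mice. Values are log2 expression levels from RMA. They compare 1 gene between arrays. Percentile ranks and the words dim and bright describe the signal of a cluster on its array, and do not rank genes by amount of transcript.

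Cytotoxic lymphocytes store granzymes, a family of serine proteases, with perforin in granules built on the proteoglycan serglycin, the product of Srgn. On contact with a target cell the granules fuse with the membrane, perforin opens a way into the target, and the granzymes cleave substrates there. Clade B serpins in the cytosol bind stray granzymes and protect the cell that made them. CD8+ T cells and NK cells are the usual carriers of this programme, and activated CD4+ T cells express part of it, granzyme B above all.

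Several of these genes are neighbours in the mouse genome (GRCm38.p6). Serpinb6b (chromosome 13, 32956811 to 32979067) and Serpinb9 (chromosome 13, 32997061 to 33017955) lie 18.0 kb apart with 0 annotated genes between them. Gzma and Gzmk lie 70.6 kb apart on the same chromosome, and Gzmb and Gzmc lie 17.2 kb apart on chromosome 14, in both cases with 0 protein-coding genes between. The promoters of both serpins are shown because these neighbours had the lowest log2 differences between the subsets among the members, and that of Gzmb because it encodes the best-known granule protease. Each window covers 250 bases before and 50 bases after a transcription start in RefSeq. Both serpin windows lie within the annotated span of their gene, so they belong to an inner start. Both are on the plus strand, at chr13:32965011-32965310 for Serpinb6b and chr13:33004291-33004590 for Serpinb9, and the Gzmb window is on the minus strand at chr14:56262285-56262584. Capitals mark matches, on either strand, to the letters TGANTCA (AP-1), TGTGGT (RUNX), GAAA, 2 bases of any kind and GAAA (IRF), TTCNNNGAA (STAT), GGG, 2 bases of any kind, TT, 1 base of any kind and CC (NF-kB), TCACAC (T-box) and TGACGT (CRE).
Serpinb6b: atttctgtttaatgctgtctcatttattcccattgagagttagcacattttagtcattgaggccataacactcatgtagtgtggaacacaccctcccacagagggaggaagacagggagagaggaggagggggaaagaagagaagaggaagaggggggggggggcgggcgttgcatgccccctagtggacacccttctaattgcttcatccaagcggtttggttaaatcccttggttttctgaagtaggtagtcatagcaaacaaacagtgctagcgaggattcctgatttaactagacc
Serpinb9: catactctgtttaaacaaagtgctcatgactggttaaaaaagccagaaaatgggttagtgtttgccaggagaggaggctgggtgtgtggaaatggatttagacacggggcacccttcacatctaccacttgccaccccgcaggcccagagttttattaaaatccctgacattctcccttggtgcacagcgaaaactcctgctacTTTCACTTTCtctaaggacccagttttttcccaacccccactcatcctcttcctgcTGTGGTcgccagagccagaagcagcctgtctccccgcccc
Gzmb: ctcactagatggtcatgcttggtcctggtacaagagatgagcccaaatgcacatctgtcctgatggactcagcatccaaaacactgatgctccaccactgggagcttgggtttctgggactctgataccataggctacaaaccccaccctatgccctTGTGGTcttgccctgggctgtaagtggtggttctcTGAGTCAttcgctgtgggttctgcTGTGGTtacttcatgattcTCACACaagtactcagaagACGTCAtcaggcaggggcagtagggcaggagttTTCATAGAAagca

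The Serpinb6b window held 0 matches to these letters. The Serpinb9 window held the IRF letters at base -46 from the start, on the other strand, and the RUNX letters at base 11. The Gzmb window held RUNX letters at bases -93 and -34, AP-1 letters at -58 and T-box letters at -15. It also held CRE letters at 5, on the other strand, and STAT letters at 38. No marked matches overlap in these windows. Of 32851 promoter windows of the same length, 3.4% held the IRF letters, 16.8% the RUNX letters, 7.8% the AP-1 letters, 14.5% the T-box letters, 7.5% the CRE letters, 8.3% the STAT letters and 4.8% the NF-kB letters. These matches describe the letters and do not show binding. A window for Ctsw was not used here.

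Across the whole series, the median of an array was 4.92 to 5.05 (log2), and both arrays of each group gave an r across clusters from 0.984 to 0.994. The replicate numbers differed in sex-linked genes: Xist was at 11.74 to 12.07 on replicate 2 arrays and at 4.45 to 5.02 on replicate 1 arrays, the Y-linked Kdm5d was at 7.58 to 7.78 on replicate 2 arrays and at 8.83 to 9.13 on replicate 1 arrays, and each group held 1 array of each number. The 6 measured CD4 T cell markers averaged 11.19 to 11.43 on every array. Cd4 itself was at 11.54 to 11.74, and the others are not particular to CD4 T cells. Of the CD8 T cell markers, Cd8b1 was at 6.97 to 8.78 and Cd8a at 4.39 to 4.91. Of the 7 macrophage and monocyte markers, Cd68 was at 6.88 to 8.55 and Ly6c2 at 8.01 to 9.27. The other 5 were below the 40th percentile of clusters on every array. The 40th percentile of an array's clusters lay between 4.53 and 4.63. Of the 9 measured NK cell markers, 5 to 6 were below it on each array. The defining markers Ncr1 (4.12 to 4.47) and Klrb1c (3.94 to 4.21) were below it on all arrays, whereas Itga2 (5.08 to 8.78), Klrd1 (4.74 to 5.65) and Klrk1 (4.64 to 5.50) were above it on all arrays. In bulk samples like these, fewer cells that express a gene and less transcript per cell cannot be told apart.

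Between the subsets, a serpin gene and a protease gene of the set changed in opposite directions, and Gzma, Gzmb and Prf1 did not pass the test. Averaged over the genotypes, Serpinb6b fell 2.15-fold and Ctsw rose 2.01-fold in CD45RBlow cells. Serpinb9 was 1.76-fold lower and Gzmk 1.27-fold higher, and both passed with the replicate number as a term of the fit but not without it. Limma called 2 of the 9 tested members at an adjusted p under 0.05, against 3.03% of the 13508 genes tested (1.10% higher and 1.93% lower). With the replicate number as a block it called 4 of 9, against 5.61% of all genes (1.95% higher and 3.66% lower). The median log2 difference was -0.011 over the 9 tested members and -0.0078 over all genes tested.

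**Figure D1:**
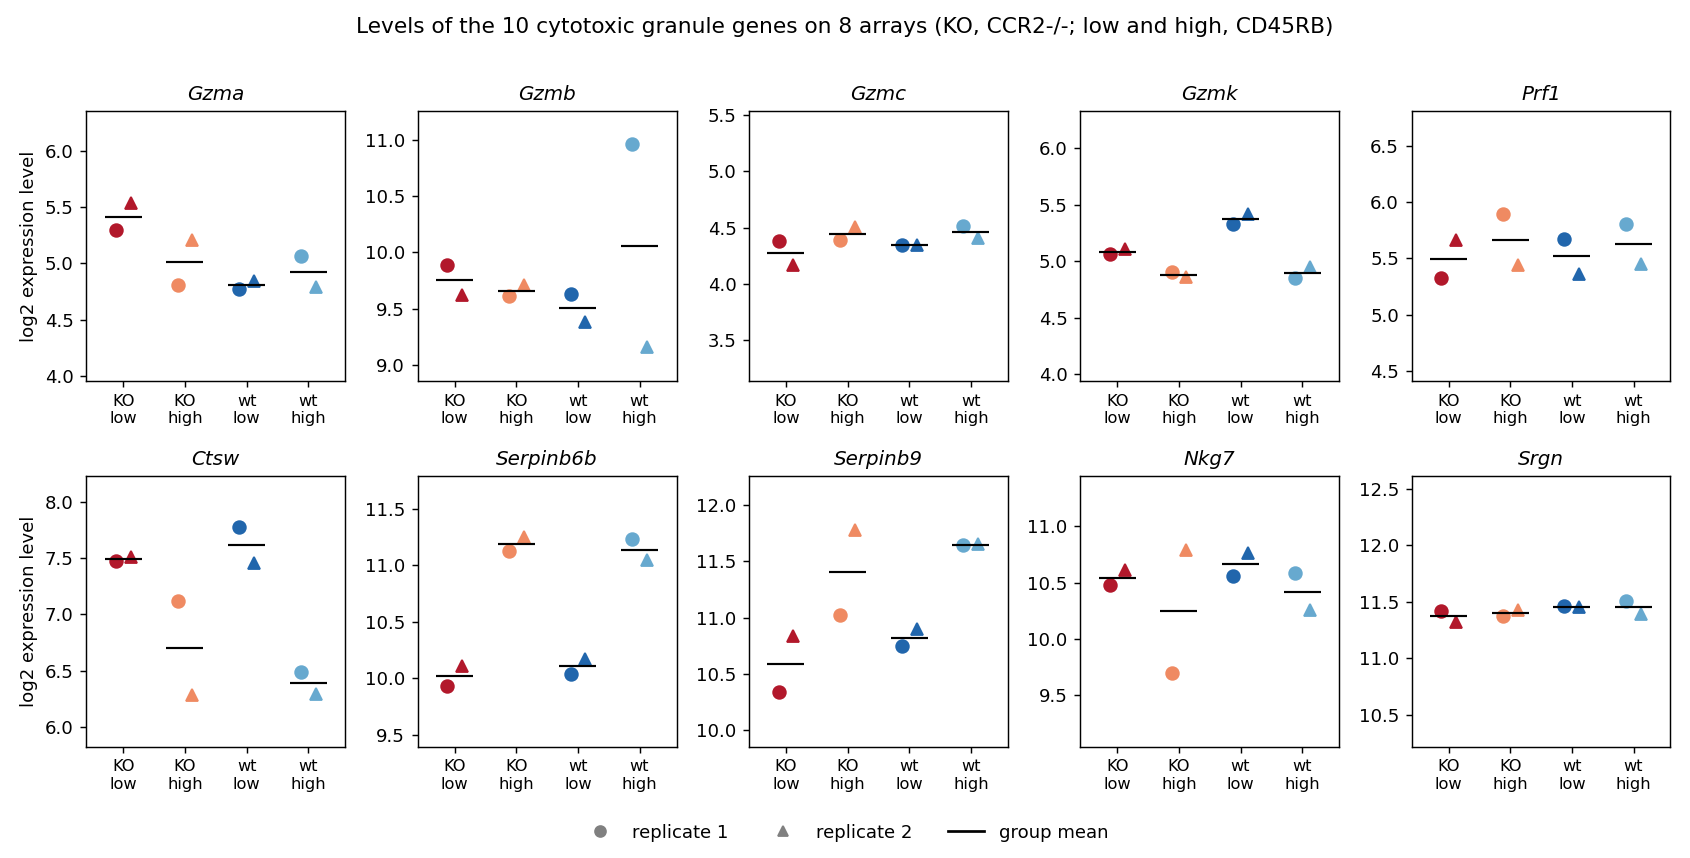
Log2 expression level of each of the 10 genes (vertical axes, all of equal span) in the 4 groups, with circles for replicate 1, triangles for replicate 2 and lines for group means (n = 2). Serpinb6b separates both CD45RBlow groups, at 9.93 to 10.17, from both CD45RBhigh groups, at 11.04 to 11.25, and Gzmb has a single high value of 10.96 in wt CD45RBhigh cells.

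Serpinb6b encodes a clade B serpin that was described in mice as an inhibitor of granzyme A. Its log2 level was 9.93 and 10.11 in CCR2-/- CD45RBlow cells and 10.04 and 10.17 in wt CD45RBlow cells, against 11.13 and 11.25 in CCR2-/- CD45RBhigh cells and 11.24 and 11.04 in wt CD45RBhigh cells. All 4 CD45RBlow arrays lay below all 4 CD45RBhigh arrays, and neither subset showed a separation by genotype. The averaged log2 difference was -1.10 (standard error 0.09, 95% confidence interval -1.31 to -0.89), with an adjusted p = 0.00351 in limma, and the gene ranked 14 by p among all genes tested. Within CCR2-/- cells Serpinb6b fell by 1.17 on the log2 scale (limma adjusted p = 0.0229), where 0.333% of all genes were called, and 1.45% with the replicate block. That call was lost without either CCR2-/- CD45RBlow array (adjusted p = 0.192 without replicate 1 and 0.0671 without replicate 2), without either wt CD45RBlow array (0.0631 for each) and with array weights (0.0713). Within wild type the log2 difference was -1.04 (limma adjusted p = 0.0552, and 0.0253 with the replicate block), where 0.0888% of all genes were called without the block and 0.770% with it.

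Serpinb9, known in mice also as Spi6, encodes an inhibitor of granzyme B. Its log2 level was 10.34 and 10.84 in CCR2-/- CD45RBlow cells and 10.75 and 10.90 in wt CD45RBlow cells, against 11.03 and 11.78 in CCR2-/- CD45RBhigh cells and 11.65 and 11.65 in wt CD45RBhigh cells. The subsets did not overlap, and both CCR2-/- replicate 1 arrays were the lowest of their subset. The averaged log2 difference was -0.82 (standard error 0.18, interval -1.24 to -0.39), with an adjusted p = 0.0621 in limma and 0.0191 with the replicate block. The gap between arrays of the same number was similar in size throughout, at -0.69 and -0.93 in CCR2-/- cells and -0.90 and -0.75 in wild type. Without CCR2-/- CD45RBhigh replicate 1 the log2 difference was -1.01 and passed (adjusted p = 0.0187), and it also passed with median-centred arrays (0.0338), array weights (0.0435) and an intensity trend with robust variances (0.0487).

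Other clade B serpins were compared in the same way. Of 14 relatives on the list, 6 were bright enough to test, and 0 passed limma's test in either direction, with or without the block. The smallest p-values belonged to Serpinb6a, with a log2 difference of -0.16 (limma adjusted p = 0.440), and Serpinb9f, with -0.093 (limma adjusted p = 0.661). At an unadjusted p under 0.05, 0 of the 6 differed. These relatives were dim, with Serpinb6a at 4.69 to 5.06 over all arrays, and close copies in this gene cluster can share probes.

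Ctsw encodes cathepsin W, a papain-family cysteine protease found mainly in CD8+ T cells and NK cells. Its log2 level was 7.48 and 7.51 in CCR2-/- CD45RBlow cells and 7.77 and 7.46 in wt CD45RBlow cells, against 7.12 and 6.28 in CCR2-/- CD45RBhigh cells and 6.49 and 6.29 in wt CD45RBhigh cells. The subsets did not overlap, although CCR2-/- CD45RBhigh replicate 1 came close to the CD45RBlow arrays. The averaged log2 difference was 1.01 (standard error 0.18, interval 0.58 to 1.43), with an adjusted p = 0.0364 in limma and 0.0124 with the replicate block. The call rested on the full set of arrays. It was lost without wt CD45RBhigh replicate 1 (adjusted p = 0.0934) or 2 (0.120), wt CD45RBlow replicate 1 (0.176) or 2 (0.0885), and CCR2-/- CD45RBlow replicate 1 (0.128) or 2 (0.0884), while the log2 difference lay between 0.80 and 1.22 over the fits that left out 1 array. Those fits called between 39 and 524 of all genes, with the fewest without wt CD45RBlow replicate 1. Within a genotype Ctsw did not pass, with log2 differences of 0.79 in CCR2-/- cells (limma adjusted p = 0.266) and 1.22 in wt cells (limma adjusted p = 0.195).

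**Figure D2:**
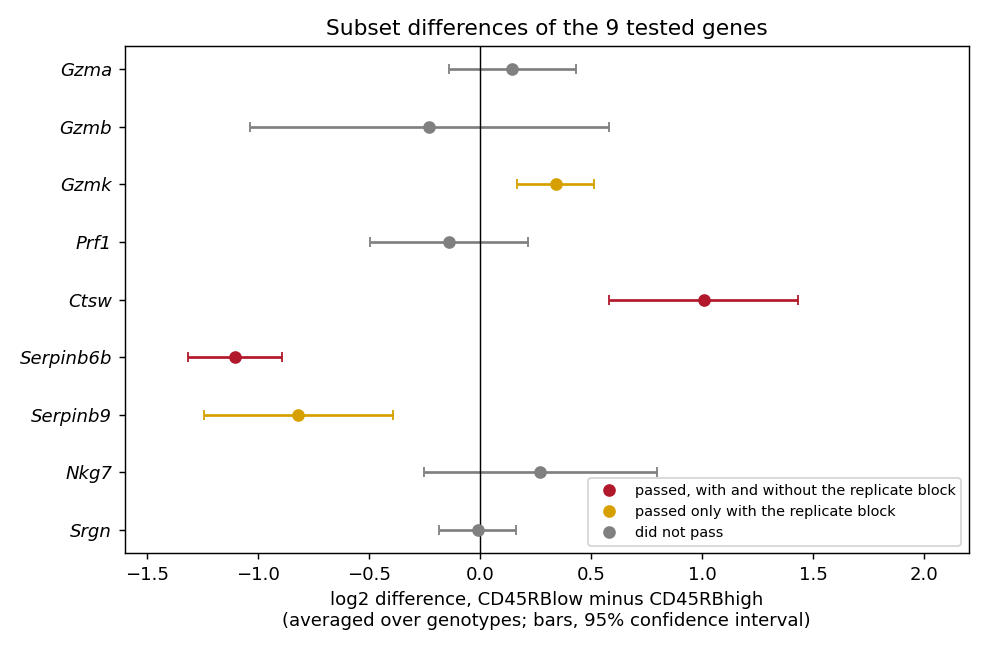
Log2 difference of CD45RBlow minus CD45RBhigh cells, averaged over the genotypes (horizontal axis), for the 9 tested genes, with 95% confidence intervals from limma. Ctsw at 1.01 and Serpinb6b at -1.10 passed with and without the replicate block, and of these fits Gzmk at 0.34 and Serpinb9 at -0.82 passed in the one with it.

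The tryptic granzymes Gzma and Gzmk, whose products cut after basic residues, were dim in every group. Gzmk had a log2 level of 5.06 and 5.11 in CCR2-/- CD45RBlow cells and 5.33 and 5.42 in wt CD45RBlow cells, against 4.91 and 4.86 in CCR2-/- CD45RBhigh cells and 4.85 and 4.95 in wt CD45RBhigh cells. The subsets did not overlap, yet its percentile rank among the clusters of an array was only 46.2 to 57.0. The averaged log2 difference was 0.34 (standard error 0.07, interval 0.17 to 0.51), with an adjusted p = 0.0582 in limma and 0.0445 with the replicate block. Gzma was at 5.30 and 5.53 in CCR2-/- CD45RBlow cells and 4.78 and 4.85 in wt CD45RBlow cells, against 4.81 and 5.21 in CCR2-/- CD45RBhigh cells and 5.07 and 4.79 in wt CD45RBhigh cells. The CCR2-/- CD45RBlow arrays held the 2 highest values, and the other groups overlapped. Its averaged subset difference was 0.15 (interval -0.14 to 0.43, limma adjusted p = 0.607). Within CCR2-/- cells it was 0.41 (interval 0.0027 to 0.81, limma adjusted p = 0.402). Within wt cells it was -0.11 (interval -0.52 to 0.29, limma adjusted p = 0.929).

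Gzmb, which encodes the aspartate-directed protease granzyme B, was bright, with a percentile rank of 87.1 to 96.7 among clusters. Its log2 level was 9.89 and 9.63 in CCR2-/- CD45RBlow cells and 9.63 and 9.38 in wt CD45RBlow cells, against 9.61 and 9.71 in CCR2-/- CD45RBhigh cells and 10.96 and 9.16 in wt CD45RBhigh cells. The wt CD45RBhigh arrays were the highest and the lowest of all 8, and the subsets overlapped. The averaged log2 difference was -0.23 with a wide interval from -1.04 to 0.58 (limma adjusted p = 0.809). It was 0.22 without wt CD45RBhigh replicate 1 and -0.68 without wt CD45RBhigh replicate 2, so these 2 arrays set its sign.

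Gzmc, a chymase-like granzyme next to Gzmb, was listed at 4.17 to 4.38 in CD45RBlow cells, against 4.39 to 4.51 in CD45RBhigh cells, with a percentile rank of at most 38.1 on every array. These values are too dim for a statement on its expression. Of the 6 other granzyme genes on the list, 5 had a cluster of their own and 3 were tested, and limma called 0 of them. Gzmm (log2 difference 0.20, limma adjusted p = 0.308) and Gzmg (0.26, limma adjusted p = 0.392) had the smallest p-values, and at an unadjusted p under 0.05, 0 of the 3 differed. The granzymes beside Gzmc on chromosome 14 are close copies, so their dim signals can be shared.

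Prf1, Nkg7 and Srgn, which encode the pore protein, a membrane protein needed for granule release and the granule proteoglycan, did not pass between subsets. Prf1 was dim, at 5.33 and 5.67 in CCR2-/- CD45RBlow cells and 5.67 and 5.37 in wt CD45RBlow cells, against 5.89 and 5.44 in CCR2-/- CD45RBhigh cells and 5.80 and 5.45 in wt CD45RBhigh cells. Its averaged log2 difference was -0.14 (interval -0.49 to 0.22, limma adjusted p = 0.719), and the groups overlapped. Nkg7 was at 10.48 and 10.61 in CCR2-/- CD45RBlow cells and 10.56 and 10.76 in wt CD45RBlow cells, against 9.70 and 10.79 in CCR2-/- CD45RBhigh cells and 10.58 and 10.26 in wt CD45RBhigh cells. CCR2-/- CD45RBhigh cells thus held both its lowest and its highest value, and the averaged log2 difference was 0.27 (interval -0.25 to 0.80, limma adjusted p = 0.604). Srgn was the steadiest member, between 11.32 and 11.51 on all 8 arrays, with an averaged log2 difference of -0.011 and an interval of -0.18 to 0.16.

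**Figure D3:**
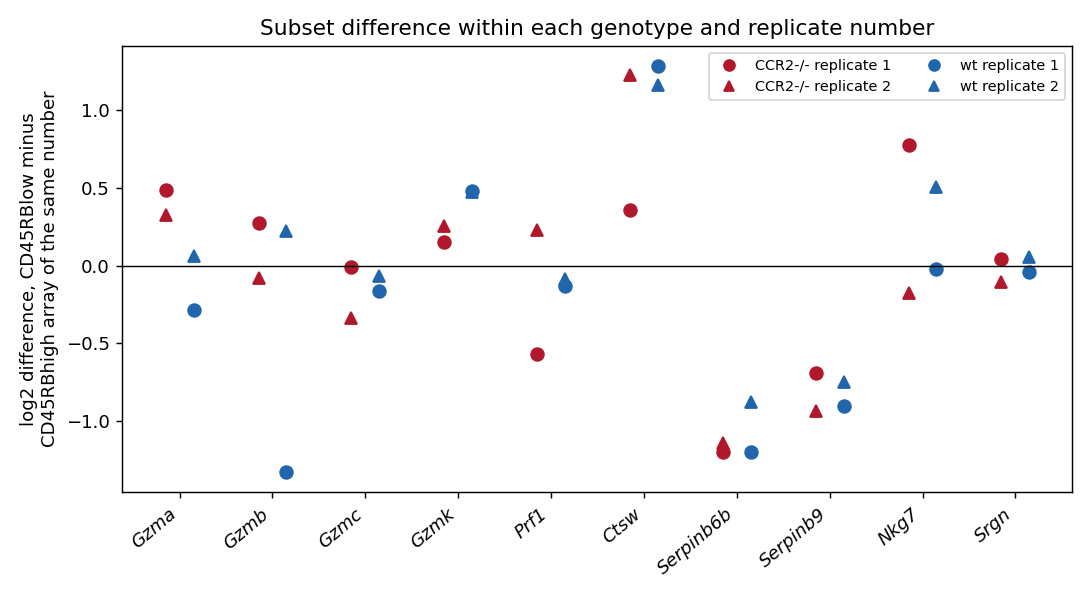
Log2 difference of each CD45RBlow array minus the CD45RBhigh array of the same genotype and replicate number (vertical axis), for CCR2-/- (red) and wt (blue) cells. Serpinb6b and Serpinb9 lie below 0 in all 4 pairs and Ctsw and Gzmk above 0 in all 4, whereas Gzmb ranges from -1.33 to 0.27.

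Pairs of arrays of the same genotype and replicate number show how the size of the gap varied, and their common sign only restates the separation of the subsets. The Serpinb6b gap was -1.20 and -1.14 in CCR2-/- cells and -1.20 and -0.87 in wt cells. The Ctsw gap was 0.36 and 1.23 in CCR2-/- cells and 1.28 and 1.16 in wt cells. The Gzmc gaps were also all below 0, from -0.34 to -0.0085, at its dim level. A complete separation of the 4 CD45RBlow from the 4 CD45RBhigh arrays was seen in 4 of the 9 tested members, 2 higher and 2 lower, against 14.3% of all genes tested (6.13% higher and 8.13% lower).

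Other genes of the cytotoxic pathway were taken from lists by role. Among 6 death ligands and secreted effectors, 1 rose and 1 fell, against 1.10% higher and 1.93% lower of all genes tested. Fasl, the ligand of the death receptor Fas, was at 6.91 to 7.43 in CD45RBlow cells, against 8.11 to 8.34 in CD45RBhigh cells (log2 difference -1.10, limma adjusted p = 0.0152). Tnfsf10, which encodes the death ligand TRAIL, was at 6.33 to 6.65 in CD45RBlow cells, against 5.88 to 5.98 in CD45RBhigh cells (log2 difference 0.57, limma adjusted p = 0.0303). The Fasl call was lost without wt CD45RBhigh replicate 1 (adjusted p = 0.0583), wt CD45RBlow replicate 1 (0.0773) or CCR2-/- CD45RBlow replicate 1 (0.0505). The Tnfsf10 call was lost without any 1 of 6 arrays, namely both wt CD45RBhigh, both wt CD45RBlow and both CCR2-/- CD45RBlow arrays (adjusted p from 0.0511 to 0.115).

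Of 18 regulators, 16 were tested, of which 2 rose and 1 fell, against the same shares of all genes. Prdm1, which encodes the repressor Blimp-1, was at 6.23 to 7.12 in CD45RBlow cells, against 4.77 to 5.16 in CD45RBhigh cells (log2 difference 1.67, limma adjusted p = 0.00586). Id2, an inhibitor of E proteins, was at 10.63 to 11.26 in CD45RBlow cells, against 9.11 to 9.89 in CD45RBhigh cells (log2 difference 1.56, limma adjusted p = 0.00586). Both averaged differences passed in all 8 fits that left out 1 array. Within CCR2-/- cells both passed too, with log2 differences of 1.66 for Id2 (limma adjusted p = 0.0352) and 1.61 for Prdm1 (limma adjusted p = 0.0456). Within wt cells the log2 differences were 1.47 for Id2 and 1.74 for Prdm1, with limma adjusted p-values of 0.0801 for Id2 and 0.0610 for Prdm1, which passed with the replicate block at 0.0205 and 0.0143. Stat4, a signal transducer of interleukin 12, was at 11.25 to 11.74 in CD45RBlow cells, against 12.02 to 12.22 in CD45RBhigh cells (log2 difference -0.66, limma adjusted p = 0.0286). The Stat4 call was lost without any 1 of both wt CD45RBhigh arrays, both wt CD45RBlow arrays or CCR2-/- CD45RBlow replicate 1 (adjusted p from 0.0599 to 0.150). Within CCR2-/- cells Stat4 was at a log2 difference of -0.70 (limma adjusted p = 0.126) and Fasl at -1.14 (0.0848), and with the replicate block both passed (0.0466 for Stat4 and 0.0474 for Fasl).

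The machinery that fills, moves and releases granules showed no call. All 11 genes of granule processing were tested and 0 passed. Lamp1, a granule membrane protein whose surface display marks release, had a log2 difference of 0.30 (limma adjusted p = 0.169), and Cst7, which encodes the cathepsin inhibitor cystatin F, one of 0.24 (limma adjusted p = 0.223), the 2 of 11 with an unadjusted p under 0.05. Of 18 genes of granule transport and exocytosis 17 were tested and 0 passed, 3 with an unadjusted p under 0.05. Over all genes tested, 2446 of 13508 had such a p in this comparison. Sytl3, a synaptotagmin-like protein gene, was at 5.89 to 7.06 in CD45RBlow cells, against 5.33 to 6.06 in CD45RBhigh cells (log2 difference 0.66, limma adjusted p = 0.0548, and 0.0378 with the replicate block). It also passed with the stricter filter on dim genes (adjusted p = 0.0450), with median-centred arrays (0.0444) and without wt CD45RBlow replicate 2 (0.0437). Stx11, a syntaxin of granule release, had a log2 difference of 0.87 (limma adjusted p = 0.148), and passed without CCR2-/- CD45RBhigh replicate 2, where the difference was 1.22 (adjusted p = 0.00727).

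**Figure D4:**
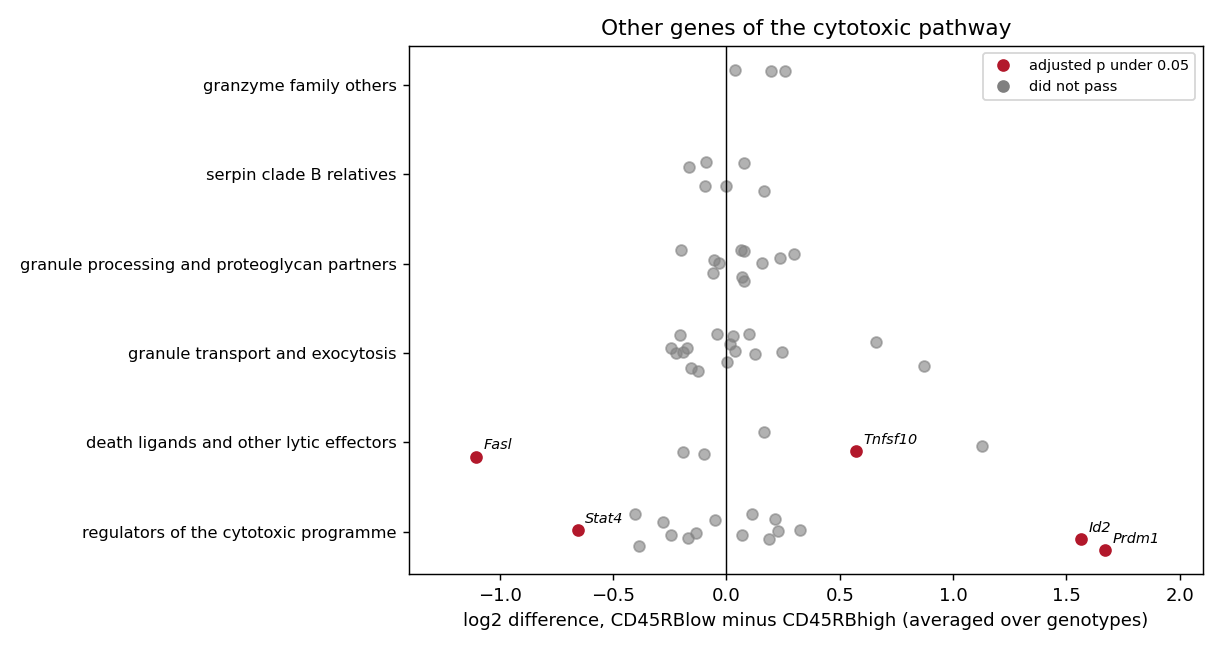
Log2 difference of CD45RBlow minus CD45RBhigh cells, averaged over the genotypes (horizontal axis), for the tested genes of 6 lists by role, with red points for an adjusted p under 0.05. Prdm1 (1.67), Id2 (1.56) and Tnfsf10 (0.57) lie to the right, Fasl (-1.10) and Stat4 (-0.66) to the left, and 0 points of the granule processing and transport lists are red.

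Markers of other cells that carry these genes were compared between the subsets. The CD8 T cell marker Cd8b1 was at 6.97 to 7.38 in CD45RBlow cells, against 7.76 to 8.78 in CD45RBhigh cells (log2 difference -0.92, limma adjusted p = 0.0776, and 0.0467 with the replicate block), the same direction as the serpins. It passed without CCR2-/- CD45RBhigh replicate 2 as well (adjusted p = 0.0118). Cd8a was dim in both subsets, at 4.39 to 4.63 in CD45RBlow cells, against 4.51 to 4.91 in CD45RBhigh cells. Of 15 NK cell markers 9 were measured and 5 tested, and 0 passed in limma. The 9 averaged 4.75 to 4.88 in CD45RBlow cells, against 4.67 to 5.00 in CD45RBhigh cells, and of the 5 tested 2 had a positive and 3 a negative log2 difference. Eomes was at -0.39 (limma adjusted p = 0.0883), Klrk1 at -0.39 (0.281), Klrd1 at -0.31 (0.300), Klre1 at 0.074 (0.752) and Itga2 at 1.12 (0.410). Itga2, the brightest of them, was at 8.23 to 8.78 in CD45RBlow cells, against 5.08 to 8.56 in CD45RBhigh cells, with the lowest value on CCR2-/- CD45RBhigh replicate 1. The macrophage marker Cd68 was at 6.88 to 7.54 in CD45RBlow cells, against 7.16 to 8.55 in CD45RBhigh cells, also in the direction of the serpins. Its log2 difference was -0.53 with a limma adjusted p = 0.292, which was 0.0244 when blocked by replicate. Within CCR2-/- cells it was -0.97 with a limma adjusted p = 0.283, or 0.0259 when blocked. Ly6c2 of the same list was at -0.53 (limma adjusted p = 0.269), the dendritic cell marker Zbtb46 at -0.43 (0.208) and the mast cell marker Ms4a2 at -0.16 (0.466). Markers of other lists ran in the direction of Ctsw, namely Zbtb16 of innate-like T cells at 0.53 (limma adjusted p = 0.0524, and 0.0416 with the replicate block). The neutrophil markers Ly6g at 0.24 (0.345) and S100a9 at 0.18 (0.344) did so too. The 7 measured B cell markers averaged 4.32 to 4.42 in CD45RBlow cells, against 4.47 to 5.72 in CD45RBhigh cells, and were highest on the replicate 1 arrays of CD45RBhigh cells, at 5.72 in CCR2-/- and 5.23 in wt cells. These are also the arrays with the low Nkg7 and Serpinb9 and the high Ctsw values of CCR2-/- CD45RBhigh cells and with the high Gzmb value of wt CD45RBhigh cells. The part of other cells in these values was not tested.

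The comparison of CCR2-/- with wt cells asked whether the loss of the receptor changed the granule genes. Limma called 0 of the 9 tested members, and 0% of the 13508 genes, in each subset, in the average over subsets and for the interaction of genotype and subset, with or without the replicate block. At an unadjusted p under 0.05, 1 member differed in the average over subsets, 2 in CD45RBlow cells, 0 in CD45RBhigh cells and 0 for the interaction. Of the 13508 genes tested, 521, 298, 354 and 160 did so in these comparisons, in the same order.

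The members with an unadjusted p under 0.05 were the dim tryptic granzymes Gzma and Gzmk, and they ran in opposite directions. In CD45RBlow cells, Gzma was at 5.42 ± 0.17 in CCR2-/- and 4.81 ± 0.05 in wt cells (SD, n = 2 each), a log2 difference of 0.60 (interval 0.20 to 1.01, limma adjusted p = 0.9998). Gzmk was at 5.09 ± 0.04 in CCR2-/- CD45RBlow and 5.38 ± 0.06 in wt CD45RBlow cells, a log2 difference of -0.29 (interval -0.53 to -0.047, limma adjusted p = 0.9998). The genotypes did not overlap in CD45RBlow cells for these genes and Srgn, 3 of the 9 tested members, against 30.5% of all genes tested. In CD45RBhigh cells 0 of 9 members were free of overlap, against 26.4% of all genes, and over all 8 arrays 0 of 9, against 1.67%. In CD45RBhigh cells both genes overlapped between genotypes, with log2 differences of 0.084 for Gzma and -0.019 for Gzmk. The interaction was 0.52 for Gzma (interval -0.050 to 1.09) and -0.27 for Gzmk (interval -0.62 to 0.072), and neither passed. Averaged over the subsets, the genotype difference was 0.34 for Gzma (interval 0.059 to 0.63, limma adjusted p = 0.940). For Gzmk it was -0.15 (interval -0.33 to 0.017, limma adjusted p = 0.940).

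The other tested members had intervals that included 0. Averaged over the subsets, the log2 difference of CCR2-/- minus wt cells was -0.015 for Serpinb6b (interval -0.23 to 0.20), -0.24 for Serpinb9 (interval -0.67 to 0.19) and 0.096 for Ctsw (interval -0.33 to 0.52). It was -0.073 for Gzmb with an interval of -0.88 to 0.74, which does not exclude a change of 1.5-fold either way. For Srgn it was -0.067 (interval -0.24 to 0.11), for Nkg7 -0.15 (interval -0.67 to 0.38) and for Prf1 0.0086 (interval -0.35 to 0.36), whose sign turned with median-centred arrays.

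The genes whose levels over the 8 arrays were most like those of a member were listed as a description. The levels of Serpinb6b were most like those of Phf11b (Pearson r = 0.990), Il12rb1 (0.987) and Amigo2 (0.983). Those of Ctsw were most like Dido1 (0.972), Mir17 (0.966) and Tacc2 (0.963). Those of Gzmb, whose pattern rests on the wt CD45RBhigh array at 10.96, were most like Rnf14 (0.920), Gm15834 (0.916) and Ccdc171 (0.907). Each was the highest of 13508 tested genes over the same 8 arrays.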

How the data were processed

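Expression was measured on 8 Affymetrix whole-transcript arrays with 200 ng of total RNA each, per the labels. The deposited values are log2 expression levels of 41034 transcript clusters, which the authors produced using RMA and Partek software, per the submitters' processing notes; versions are not given in the sources used here. RMA forces the same overall spread of probe values on each array before they are summarized, and so hides a shift of all genes together. The medians of the deposited values still ranged from 4.92 to 5.05 between arrays. Precision is limited by the number of arrays. The median standard error of a log2 difference was 0.10 for effects averaged over genotypes or subsets and 0.15 between groups of 2.

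Symbols came from the platform annotation, checked by entrez identifier against RefSeq's GRCm38.p6 gene table (23328 of 23521 single-symbol clusters matched), and promoter sequences from RefSeq's GRCm38.p6 table, where 9 of the 10 members had a window. Clusters with several symbols were left out, and the brightest cluster stood for a gene. A gene was tested where at least 2 arrays had it no lower than the 40th percentile of their clusters. Limma 3.58.1 in R 4.3.3 fitted a mean for each of the 4 groups over all 8 arrays, with two-sided moderated tests adjusted by Benjamini-Hochberg over all genes tested and a threshold of 0.05. Separate mice are not stated for the replicates. The sex-linked genes Xist and Kdm5d differed between the replicate numbers in every group, so the arrays of a group were not technical repeats of the same cell sample. Sex and replicate number cannot be told apart here. The number of mice behind an array is not stated, and the p-values reflect the spread among these arrays alone.

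Replicate numbers come from the sample titles, where arrays without a number were taken as replicate 1. The gap between the replicates of a group, taken over genes, correlated between all 6 pairs of groups (r from 0.11 to 0.53, over the limit of 0.1). The main fit has no term for the replicate number, so its calls ignore this pairing. An alternative fit took the replicate number as a block. The fit with the replicate block is given beside a result where it changes the call. The other alternatives were the filter, the cluster for a gene, the scaling, the variance model, array weights and leaving out each array. On simulated arrays, the averaged subset effect was recovered for 87 of 100 genes given a change of 1 log2 unit and for 97 of 100 given a change of 2, among 13508 genes. Within a genotype, a change of 1 log2 unit was recovered for 67 of 100 genes in wt and 65 of 100 in CCR2-/- cells. The simulated noise was independent between arrays, with no replicate difference and the same spread for a gene on all arrays. The real arrays differ in this, so these shares check the fit and do not give the power of the real data.

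All members were named. Of each other list by role, genes that passed the averaged subset test were named, up to 6, or the 2 with the smallest p where none passed. The marker lists were described by averages and by some of their genes, and this rule was not followed there. Markers of dendritic cells, neutrophils and mast cells had 0 calls in limma with or without the block. Of the NKT and the macrophage lists, 1 marker each passed with the block alone. For members that passed and the 3 with the largest SD, the 3 most correlated genes were named. The members and lists were chosen with earlier results of these data known.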

Additional observations from a re-analysis of the deposited data

How the results depend on the processing

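The averaged subset effect called 2 members. With the replicate block it called 4, namely Ctsw, Gzmk, Serpinb6b and Serpinb9, and without 1 array between 1 and 3, always with Serpinb6b among them. Serpinb9 also passed with median-centred arrays, array weights or an intensity trend. In wild type 0 members passed. There, 1 passed with the stricter filter, median centring, a further quantile normalization, the intensity trend or the replicate block, 2 with array weights, and 0 to 2 without 1 array. In CCR2-/- cells 1 passed, 0 with array weights and 0 to 1 without 1 array. The counts for genotype and interaction stayed at 0 under all alternatives run, and the block changed no call of a member other than Gzmk and Serpinb9 in the averaged effect and Serpinb6b in wild type. Leaving out an array leaves fewer samples, and the cause of the other changes was not tested.

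Some differences changed sign, not all of them small, and none of them was called. Srgn was at 0.0066 with median centring and 0.0015 with quantile normalization in the averaged subset effect. Prf1 was at -0.043 and -0.036 in the averaged genotype effect, and at -0.0090 and -0.0059 in CD45RBhigh cells. Without 1 array, the averaged subset effect ran from -0.68 to 0.22 for Gzmb, -0.0010 to 0.54 for Nkg7 and -0.039 to 0.017 for Srgn. In wild type it ran from -0.25 to 0.025 for Gzma, -1.45 to 0.35 for Gzmb, -0.29 to 0.070 for Prf1 and -0.049 to 0.064 for Srgn. In CCR2-/- cells it ran from -0.035 to 0.22 for Gzmb, -0.40 to 0.057 for Prf1, -0.24 to 0.84 for Nkg7 and -0.077 to 0.018 for Srgn. The averaged genotype effect ran from -0.52 to 0.38 for Gzmb, -0.10 to 0.12 for Prf1, -0.11 to 0.31 for Ctsw, -0.063 to 0.033 for Serpinb6b and -0.42 to 0.13 for Nkg7. In CD45RBlow cells it ran from -0.19 to 0.15 for Prf1, -0.28 to 0.038 for Ctsw, -0.17 to 0.0077 for Serpinb6b and -0.49 to 0.018 for Serpinb9. In CD45RBhigh cells it ran from -0.12 to 0.28 for Gzma, -1.30 to 0.50 for Gzmb, -0.068 to 0.030 for Gzmk, -0.19 to 0.27 for Prf1, -0.11 to 0.73 for Ctsw, -0.044 to 0.15 for Serpinb6b, -0.62 to 0.13 for Serpinb9, -0.72 to 0.37 for Nkg7 and -0.10 to 0.0087 for Srgn. The interaction ran from -0.25 to 1.55 for Gzmb, -0.29 to 0.16 for Prf1, -0.36 to 0.39 for Serpinb9, -0.49 to 0.60 for Nkg7 and -0.094 to 0.019 for Srgn. Alternatives for genes of the other lists were added after seeing the data. Probes near the dim end, as for Gzma, Gzmc, Gzmk and Prf1, limit what differences can be read.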

Other observations

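A transcript cluster annotated to both COX2, a mitochondrial gene, and Prf1 was among the brightest, at 13.04 to 13.49 on the log2 scale. It was left out because its symbol is not single, and the single-symbol cluster of Prf1 lay at 5.33 to 5.89. Zbtb16, which encodes the transcription factor PLZF of innate-like T cells, was dim and had a log2 difference of 0.53 between CD45RBlow and CD45RBhigh cells (limma adjusted p = 0.0524, and 0.0416 with the replicate block). Fcer2a, the low-affinity IgE receptor gene of B cells, had a log2 difference of -1.61 (limma adjusted p = 0.137, and 0.0446 with the replicate block).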
